A study of Onthophagus taurus with 60 samples.

Results

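In the T2 wing of the horned dung beetle Onthophagus taurus, 157 of the 21668 protein-coding transcripts in the deposited count table (0.725%) stood at least 1.5 times above every other tissue measured. They were chosen from that table by level alone. Counts were divided by the column total in mega-counts (M), which gives CPM, and a transcript was taken when its mean in the wing was at least 2 CPM and at least 1.5 times its mean in each of the other 7 tissues. The excess of the wing is therefore a description of the choice, without a test. Tests are given only for differences among tissues other than the wing.

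RNA was measured in the epidermis of male prepupae, the final phase of larval life, when the body wall has begun to take the form of the pupa. The 8 tissues were the T2 wing from the second thoracic segment, 5 regions of the first thoracic segment (the thoracic horn, the anterior, posterior and carinated margins and the dorsal prothorax), the abdominal support structures and the dorsal head. Each tissue had 6 libraries after columns were summed in pairs in the wing and the carinated margin. The labels list a left and a right side for these tissues. Which columns came from the same animal was inferred from their correlation. All groups were untreated males of this species, and the labels give no strain and no age beyond the stage. The dorsal prothorax and the dorsal head served the study as contrasts to the wing-related tissues. Library totals were 29.4 to 35.6 M in the wing and 28.5 to 37.9 M in the carinated margin. Single columns outside the head held 12.1 to 21.4 M, and those of the head 74.8 to 87.3 M, so low transcripts were measured more precisely in the head.

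In beetles the wings of the second thoracic segment become the elytra, the hardened covers that shield the flight wings of the segment behind. Work in Drosophila showed that a small set of selector genes, among them vestigial, scalloped, apterous and nubbin, gives wing tissue its identity, and that signalling and cuticle genes act under them as the wing blade grows, folds and hardens. The first thoracic segment of living insects bears no wings, and its margins and horn have been studied as possible counterparts of wing tissue. The reference gene table for this beetle holds locus numbers in place of names for every gene matched to the 157 transcripts. None of 28 marker names, for wing, muscle, trachea, neuron, haemocyte and fat body, matched a gene, so the tissue labels could not be checked against markers and no function is given to any transcript here.

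Most of the 157 exceeded the other tissues by little, and a few by much. The ratio of the wing to the highest other tissue lay between 1.5 and 2 in 91 transcripts, between 2 and 3 in 39, between 3 and 5 in 9, between 5 and 10 in 5, and at 10 or above in 13, with a median of 1.91. In 18 transcripts every other tissue was below 1 CPM. The wing level was 2 to 10 CPM in 74 transcripts, 10 to 100 CPM in 66 and at least 100 CPM in 17, with a median of 10.8 CPM. CPM is not corrected for transcript length, so tests are made between tissues. The order of members by CPM serves to choose those named and does not rank them by molecules.

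The 157 were a small part of what the wing expressed. Among 9300 coding transcripts with a wing mean of at least 2 CPM they made up 1.69%, and the wing was the highest of the 8 tissues in 2068. Just inside the fold limit stood XM_023060588.1 (LOC111426190) with a ratio of 1.5006 and XM_023053310.1 (LOC111420332) with 1.5011. Just outside it stood XM_023060993.1 (LOC111426467) with 1.4992 and XM_023064746.1 with 1.4965. At the level limit XM_023064745.1 and XM_023062859.1 entered with wing means of 2.0115 and 2.0836 CPM, and XM_023062554.1 (LOC111427416) and XM_023063798.1 (LOC111428322) stayed out with 1.9956 and 1.9914 CPM. The limits thus pass through a continuous range of values.

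**Figure D1:**
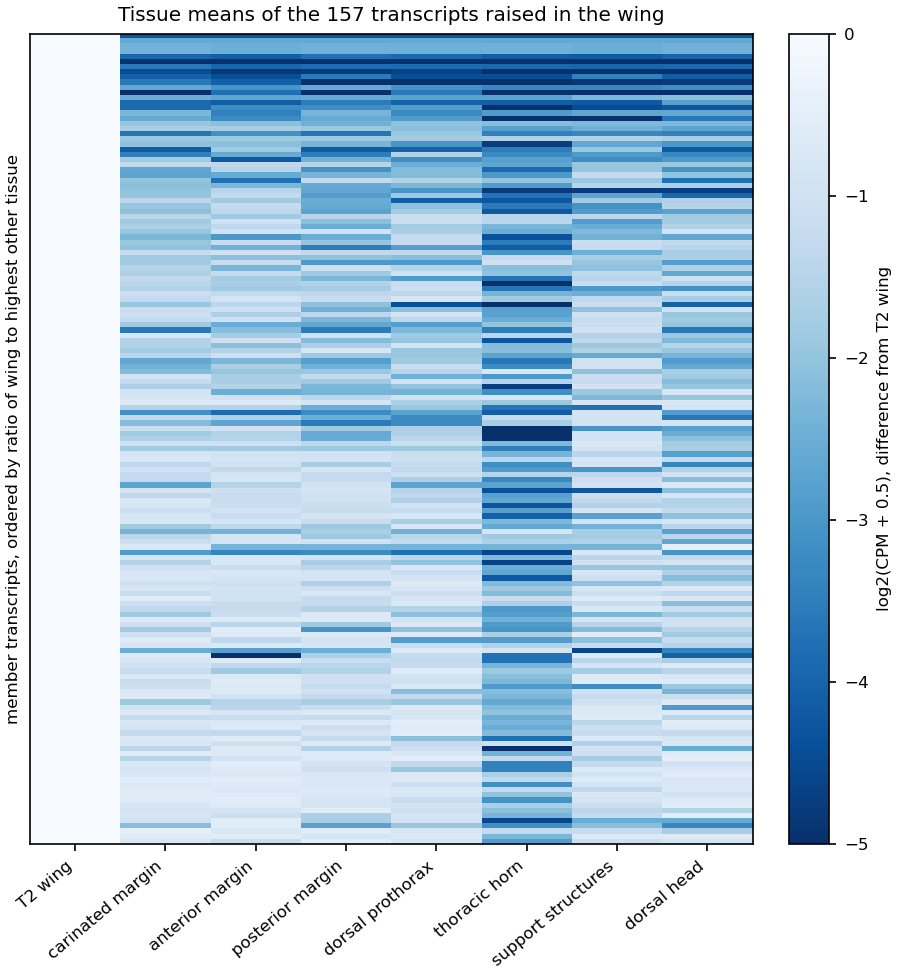
Tissue means of the 157 transcripts, 1 row each, ordered from the highest ratio of wing to next tissue at the top; colour is log2(CPM + 0.5) minus that of the wing, so white equals the wing and dark blue is 5 log2 units or more below it. The wing column is 0 by construction, the top rows are the 18 transcripts with a ratio of at least 5, and the horn column is the darkest over many rows on this scale by column total.

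In CPM by column total, the spread of single libraries shows how firmly each transcript stands apart. Overlap of single transcripts after other scaling of the libraries was not examined. In 27 of the 157 the lowest of the 6 wing libraries lay above the highest of the 42 libraries of all other tissues, which held for 0.398% of the 9300 expressed transcripts. Since the choice used the same values, this count describes the members and tests nothing. These 27 included 14 of the 18 transcripts with a ratio of at least 5, and their lowest ratio was 1.53. In the other 130 at least 1 library outside the wing reached into the range of the wing.

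XM_023053690.1, the sole transcript of LOC111420652, had the widest gap among genes whose transcripts all behaved alike. Its wing libraries stood at 59.1, 25.1, 42.6, 145, 37.6 and 72.8 CPM for replicate numbers 1 to 6, a mean of 63.6 ± 43.1 CPM (SD, n = 6). The carinated margin came next with 1.25 ± 1.42 CPM, and the highest of all 42 libraries outside the wing was at 4.08 CPM. That library was number 4 of the carinated margin, and number 4 was also the highest in the wing. The support structures were at 0 in 5 of 6 libraries. The lowest wing library was still several times above every other tissue.

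LOC111414353 has 2 transcripts in the table and both were members. XM_023045671.1 stood at 24.9, 28.9, 43.8, 62.4, 27.9 and 35.2 CPM in the wing, a mean of 37.2 ± 14.1 CPM. No library outside the wing exceeded 1.72 CPM, and the carinated margin was the next tissue with 1.23 ± 0.196 CPM. The other transcript, XM_023045672.1, ranged from 3.15 to 6.83 CPM in the wing and reached at most 0.738 CPM elsewhere. Summed over both, the gene stood at 41.7 ± 15.3 CPM in the wing, 26.5 times the carinated margin. Wing and other libraries did not overlap for either transcript.

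LOC111425442 holds 3 members among its 6 transcripts. XM_023059453.1 stood at 16.9, 26.0, 29.9, 35.1, 20.8 and 23.1 CPM in the wing, a mean of 25.3 ± 6.54 CPM. It had 0 counts in all 6 libraries of the posterior margin, the dorsal prothorax and the thoracic horn, and reached at most 4.68 CPM in any library outside the wing. XM_023059455.1 was less steady, with wing libraries from 1.39 to 16.2 CPM. XM_023059457.1 and the 3 other transcripts brought the gene to 44.3 ± 7.22 CPM in the wing and 4.85 ± 3.07 CPM in the carinated margin. The gene as a whole was 8.95 times higher in the wing than in the next tissue and varied less between animals than its single transcripts XM_023059453.1 and XM_023059455.1 did, relative to their means.

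The transcripts XM_023059424.1 and XM_023059423.1 are the whole of LOC111425424. XM_023059424.1 stood at 36.4, 33.7, 38.6, 20.3, 32.2 and 26.8 CPM in the wing, and XM_023059423.1 at 17.5, 30.8, 16.0, 20.5, 24.1 and 16.3 CPM. Here the next tissue was the dorsal prothorax, where the gene stood at 6.31 ± 1.502 CPM against 52.2 ± 8.81 CPM in the wing. In the horn XM_023059423.1 had 0 counts and XM_023059424.1 was at 0.313 ± 0.253 CPM. All 6 wing libraries lay above every other library for both transcripts.

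At the lower end of the levels, XM_023059721.1, the only transcript of LOC111425594, ranged from 6.60 to 13.4 CPM in the wing and reached 2.67 CPM at most elsewhere, with the dorsal head as the next tissue. XM_023046503.1 (LOC111415015) ranged from 3.32 to 5.76 CPM against at most 1.09 CPM. Both were separate from all other libraries.

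**Figure D2:**
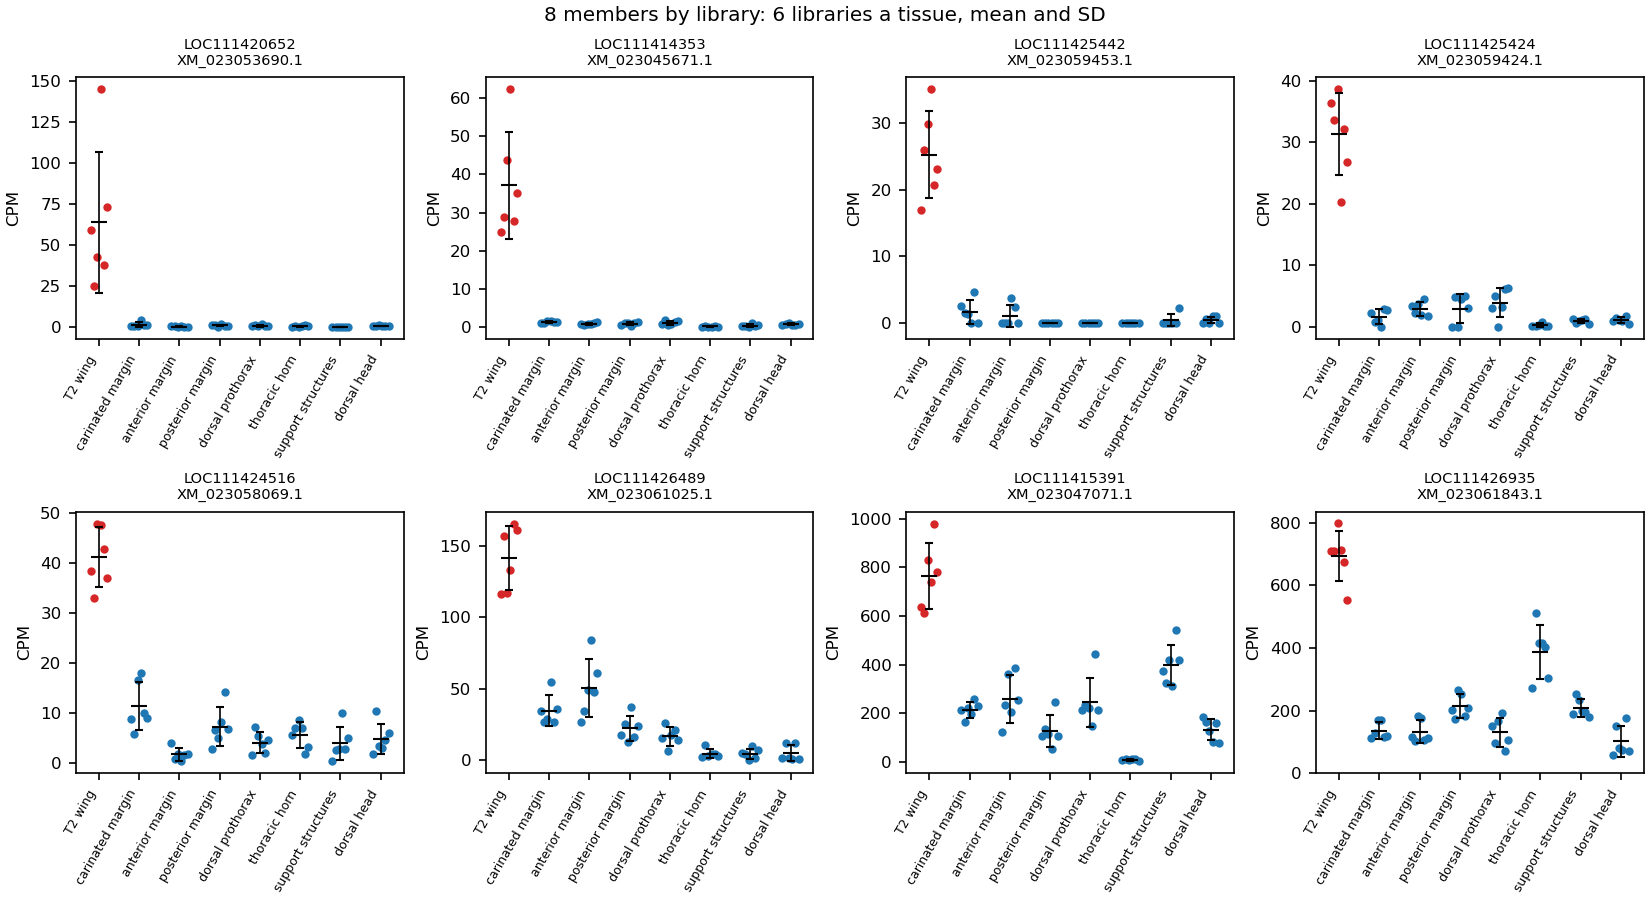
CPM of 8 members in each library; points are the 6 libraries of a tissue (red for the wing, blue for the others), and black bars give mean and SD. In all 8 the lowest wing library lies above the highest other library in CPM by column total. The gap is wide in LOC111420652 and LOC111414353 and narrow in LOC111415391 and LOC111426935. Overlap after other scaling was not examined.

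Several abundant transcripts also kept the wing apart with much smaller ratios. XM_023061025.1 (LOC111426489) stood at 117, 157, 117, 133, 166 and 161 CPM in the wing. The anterior margin was next with 50.6 ± 20.4 CPM and the carinated margin followed with 34.8 ± 10.7 CPM, whereas horn, support structures and head were all below 5 CPM on average. Its highest library outside the wing reached 84.3 CPM, in the anterior margin, so the groups did not overlap. XM_023058069.1 (LOC111424516) stood at 38.4, 33.1, 47.8, 47.6, 42.8 and 37.0 CPM in the wing and at 11.4 ± 4.82 CPM in the carinated margin. XM_023053480.1 (LOC111420478) ranged from 5.34 to 6.53 CPM in the wing and reached 4.88 CPM at most elsewhere, in the head.

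The 4 highest wing levels belonged to members with ratios below 2. XM_023046200.1, matched to no gene, ranged from 20965 to 31621 CPM in the wing, overlapped with other tissues and had a ratio of 1.56. XM_023052674.1 (LOC111419805) had a wing mean of 4406 ± 1267 CPM and a ratio of 1.504, with the anterior margin next and the horn at 190 ± 100.3 CPM. XM_023047071.1 (LOC111415391) stood at 635, 614, 832, 740, 980 and 781 CPM in the wing. The support structures were next for it with 399 ± 83.7 CPM, and their highest library, 543 CPM, stayed below the lowest of the wing. XM_023061843.1 (LOC111426935) stood at 711, 710, 799, 714, 675 and 554 CPM in the wing, and here the horn was next with 387 ± 87.4 CPM and a highest library of 513 CPM. The last pair therefore had different tissues as the next highest, and both kept the wing separate in CPM by column total. Scaling by TMM, described below, divides by factors of 0.531 to 0.639 in the horn and 1.07 to 1.19 in the wing. It raises the horn against the wing, and overlap for XM_023061843.1 on that scale was not examined.

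The other members among the 10 highest in the wing all overlapped with other tissues, apart from XM_023061025.1 above. XM_023059410.1 (LOC111425410) had a wing mean of 360 ± 98.1 CPM, XM_023062998.1 (LOC111427739) of 181 ± 113 CPM and XM_023048538.1 (LOC111416498) of 150 ± 35.0 CPM. The next tissue of XM_023048538.1 was the dorsal prothorax with 88.2 ± 17.6 CPM.

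The 2 highest members made up most of the summed level, and were left out of the following sums. The other members together held 5635 to 7613 CPM in the wing libraries, with a median of 6282 CPM. They held 1830 to 2695 CPM in the carinated margin, 1694 to 2956 CPM in the anterior margin and 1625 to 2039 CPM in the posterior margin. The range was 1964 to 2268 CPM in the dorsal prothorax, 2014 to 2933 CPM in the support structures and 1382 to 2084 CPM in the head. The horn was lowest with 892 to 1428 CPM, but only on this scale, which divides by the column total. With TMM scaling (the trimmed mean of M values), added after the data were seen, the horn held 1679 to 2411 CPM with a median of 1992 CPM, above the medians of the dorsal prothorax (1648 CPM), the posterior margin (1681 CPM) and the head (1688 CPM), and their ranges overlapped. The wing held 5282 to 6419 CPM on that scale, apart from every other library. In these bulk libraries fewer cells of a type and less RNA per cell cannot be told apart.

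Which tissue came second depended on how the libraries were scaled. By CPM the second tissue was the anterior margin for 35 members, the carinated margin for 34, the support structures for 28, the dorsal prothorax for 23, the head for 19, the posterior margin for 13 and the horn for 4. A few very abundant transcripts can lower the CPM of all others in a library, and TMM scaling corrects for this. TMM factors were 0.531 to 0.639 in the horn and 0.815 to 1.42 in the other tissues. With TMM the head came second for 42 members, the carinated margin for 32, horn and support structures for 23 each, the anterior margin for 15, the dorsal prothorax for 13 and the posterior margin for 8. The carinated margin was the second tissue for 20.4% of members after TMM, against 5.18% of the other expressed transcripts whose highest tissue outside the wing was taken in the same way. For the horn the shares were 14.6% and 18.8%, for the head 26.8% and 31.4%, and for the dorsal prothorax 8.28% and 17.2%. They were 9.55% and 5.96% for the anterior margin, 14.6% and 15.9% for the support structures, and 5.10% and 5.58% for the posterior margin. The choice of members used the levels of these tissues, and its part in these shares was not tested. The median level of the members after TMM was 9.61 CPM in the wing, 3.14 CPM in the carinated margin, 2.90 CPM in the head, 2.81 CPM in the anterior margin, 2.59 CPM in the support structures, 2.40 CPM in the posterior margin, 2.23 CPM in the dorsal prothorax and 1.48 CPM in the horn. The other expressed transcripts had medians between 8.57 and 8.97 CPM in every tissue.

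Some members with extreme ratios came from a few animals only. XM_023051525.1, 1 of 4 transcripts of LOC111418839, stood at 27.8 and 27.1 CPM in wing numbers 3 and 4 and at 0 in the other 4 wing libraries and in all 42 libraries elsewhere. Taken from counts summed over libraries, its wing level was at least 279.6-fold higher than in the dorsal prothorax and at least 1510.5-fold higher than in the head, with 3 counts over the 6 libraries of a tissue as the floor, which covers counting error only. The gene as a whole did not share this pattern, with 233 ± 73.9 CPM in the wing and 275 ± 81.7 CPM in the anterior margin, and this transcript was 3.55% of the gene in the wing. XM_023058430.1, 1 of 6 transcripts of LOC111424761, stood at 8.49 and 6.73 CPM in numbers 1 and 2 and at 0.115 CPM or less in the other 4 wing libraries. It was 2.06% of its gene in the wing. The gene stood at 127 ± 17.7 CPM in the wing and 910.3 ± 280.1 CPM in the horn, so the gene was not highest in the wing as this transcript was.

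Expected counts divide the reads of a gene among its transcripts, so members were also summed with the other transcripts of their gene. Of the 157 members 119 matched a gene, 108 genes in all, and 38 matched none. In 42 of the 108 genes the member was the only transcript in the table. Of the 66 genes with several transcripts 23 met the same limits when summed and 43 did not, and in 20 of these 43 another tissue exceeded the wing. The median ratio of wing to next tissue was 1.297 over the 66 summed genes. In all 65 member genes met the limits as genes, 26 of them with a ratio of at least 2 and 11 with a ratio of at least 3.

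The 11 genes with the highest summed ratios are led by LOC111420652 with 50.9 and LOC111414353 with 26.5. LOC111425594 followed with 9.93, LOC111425442 with 8.95, LOC111425424 with 8.31 and LOC111415015 with 6.89. The other 5 had ratios of 3.16 to 3.86. Among them LOC111416075 stood at 83.5 ± 37.2 CPM in the wing and 21.7 ± 6.66 CPM in the anterior margin, and LOC111424516 at 44.3 ± 7.20 CPM in the wing and 12.2 ± 4.80 CPM in the carinated margin. At the other end, LOC111421295 had a summed ratio of 0.404, with a wing level of 138 ± 29.1 CPM against 339 ± 70.3 CPM in the dorsal prothorax.

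Other transcripts of the member genes mostly had their highest level outside the wing. There were 175 such transcripts, 95 of them at 2 CPM or more in the wing. The wing was the highest tissue in 26 of these (27.4%), against 20.9% of the other expressed transcripts. Their median ratio of wing to highest other tissue was 0.740, and that of the other expressed transcripts 0.777. In 10 genes more than 1 transcript was a member, 21 members together.

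**Figure D3:**
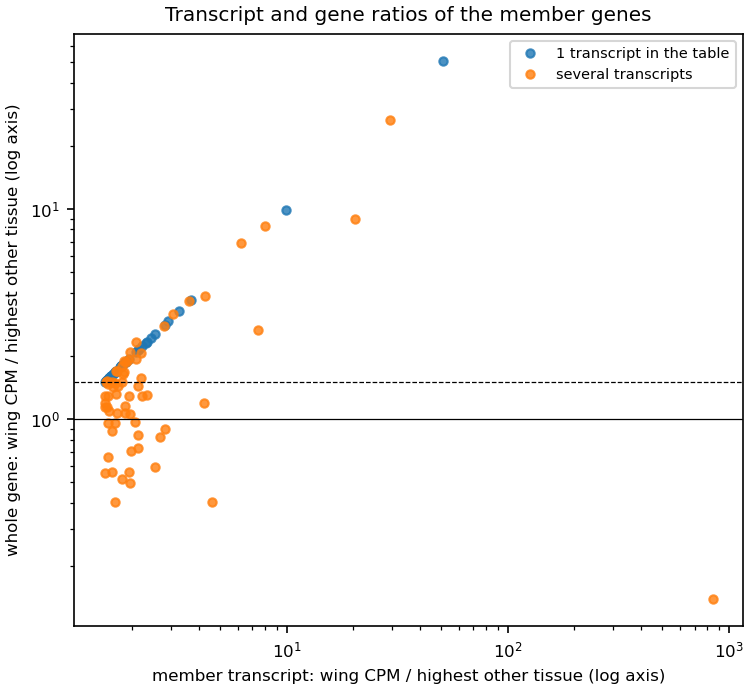
Ratio of wing to highest other tissue for the member transcript (horizontal, the highest where a gene has several) and for its gene with all transcripts summed (vertical), both on log axes; each point is a gene, blue with 1 transcript in the table and orange with several. The dashed line is the limit of 1.5 and the solid line marks equal levels; of the 43 genes under the dashed line and the 20 under the solid one, all are drawn but LOC111418839, whose member had 0 counts outside the wing.

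Members varied more between animals than other transcripts of the wing did. The median coefficient of variation over the 6 wing libraries was 37.8% for members and 19.0% for the other expressed transcripts, and 61 members (38.9%) exceeded 50%, against 14.1% of the others. On the log2 scale the median SD between animals was 0.59 for members and 0.27 for the others. Between the pair of columns taken as the same animal it was 0.25 and 0.17. The pairs were set by correlation in these same data, so a smaller spread within a pair describes the pairing and tests nothing. The members were chosen by their wing level, and the part of that choice in the spread was not tested.

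The labels number the replicates of every tissue alike, and same-numbered libraries deviated together in the tissues other than the head. From this, those tissues were taken to share their replicate numbers. Within each number the wing was the highest of the 7 tissues in all 6 numbers for 86 members (54.8%), against 4.22% of expressed transcripts. It was highest in 5 numbers for 30 members, in 4 for 19, in 3 for 11, in 2 for 9 and in 1 for 2. Since the choice used the same values, these counts describe the members and test nothing. Number 4 held the highest wing library for 42 members (26.8%), close to its share of 27.0% among the other expressed transcripts, and number 6 held the lowest for 8 members (5.10%) against 6.63%. Number 1 held the lowest for 38 members (24.2%) against 16.6%.

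Replicate numbers kept their rank across tissues in some members. XM_023054169.1 (LOC111421053) stood at 273, 196, 504, 723, 259 and 365 CPM in the wing. Number 4 was the highest and number 2 the lowest in the wing and in each of the other 6 tissues that share numbers, for example 388 and 67.1 CPM in the horn. XM_023046951.1 (LOC111415331) stood at 24.4, 37.8, 283, 761, 24.4 and 87.2 CPM in the wing, and number 4 was also highest in the carinated margin with 203 CPM and in the support structures with 485 CPM. XM_023055264.1, matched to no gene, followed another order with 184, 30.1, 136, 80.2, 15.1 and 23.0 CPM in the wing, and number 1 was again the highest in the 3 margins, in the dorsal prothorax with 26.4 CPM and in the horn with 6.15 CPM. By contrast XM_023061025.1 (LOC111426489) ranged only from 117 to 166 CPM in the wing.

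Over the members at 2 CPM or more in both tissues, the median correlation of wing and carinated margin across the 6 numbers was 0.775 for 91 members, and 0.673 for 8648 other transcripts. With the dorsal prothorax it was 0.636 and 0.524, with the horn 0.572 and 0.483, and with the head -0.202 and -0.104. These are medians of correlations over 6 replicate numbers, given as a description. They share libraries and depth.

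**Figure D4:**
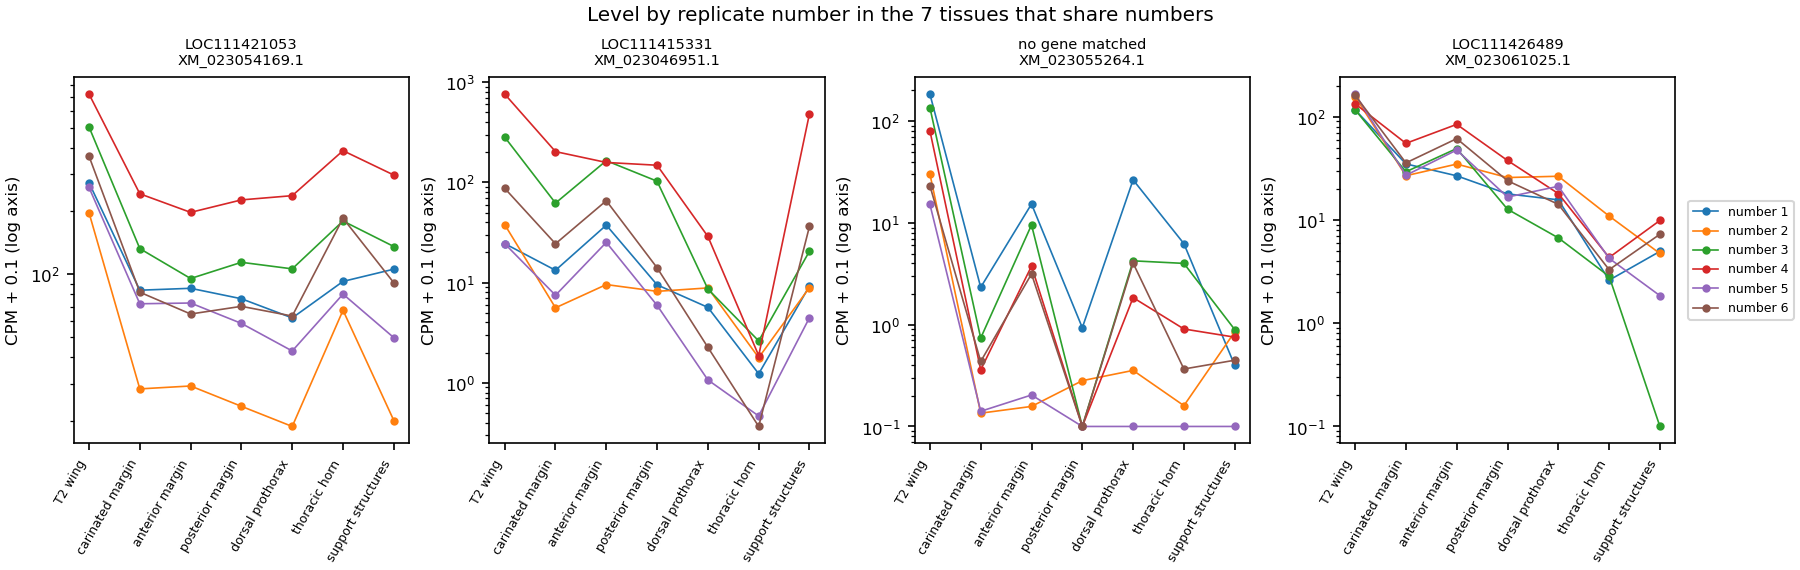
CPM + 0.1 on a log axis for 4 members in the 7 tissues that share replicate numbers; each coloured line joins the libraries of 1 number. Number 4 lies on top in every tissue for LOC111421053, number 1 leads XM_023055264.1 in the wing, dorsal prothorax and horn, and LOC111426489 has nearly equal wing libraries of 117 to 166 CPM.

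Among the members with the highest ratios, 4 matched no gene. XM_023054290.1 stood at 10.5, 4.43, 5.23, 17.0, 4.21 and 10.9 CPM and XM_023053673.1 at 7.22, 2.65, 3.82, 17.9, 4.37 and 8.33 CPM, with number 4 highest in both. None of their libraries outside the wing exceeded 0.529 and 0.368 CPM. XM_023054239.1 and XM_023053674.1 had identical counts in every column, with 1.82, 1.29, 1.44, 1.62, 2.18 and 5.92 CPM in the wing and at most 0.126 CPM elsewhere. Reads of this pair cannot be told apart by the counting, so they are 1 measurement.

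The study set the wing-related tissues against the dorsal prothorax as a contrast. The same question was put to the members, without any wing library in the fit: were they higher or lower than in the dorsal prothorax in the carinated margin, the horn and the support structures? The choice of members also used the levels of these tissues, since each had to lie below the wing. By CPM the dorsal prothorax was the highest tissue outside the wing for 14.6% of members, against 37.6% of the other expressed transcripts. The part of the choice in the members' shares of calls was not tested. Tests were edgeR's quasi-likelihood test over the 42 libraries of the 7 other tissues, with a call at a Benjamini-Hochberg adjusted p under 0.05 over 14941 tested transcripts. Of the 157 members 143 passed the filter on low counts. The 14 that did not include XM_023051525.1, XM_023058430.1, XM_023059455.1, XM_023045672.1 and XM_023059721.1, which had low counts outside the wing. The 3 comparisons share the dorsal prothorax libraries, and 6 replicates a tissue are separate animals per the series description.

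In the carinated margin 16 of the 143 members (11.2%) were called higher than in the dorsal prothorax, against 5.67% of all tested transcripts, and 1 (0.699%) was called lower, against 3.82%. The median log2 fold change was 0.37 over the members and 0.02 over all tested transcripts. With the replicate number as a block 32 of 141 members (22.7%) were called higher, against 10.5%, and 4 (2.84%) lower, against 8.11%. Carinated margin libraries hold the counts of a pair of columns, and with columns 1 to 6 alone 17 of 142 were called higher, against 5.17%. Among the 98 members at 2 CPM or more in either tissue, a limit added after the data were seen, 12 (12.2%) were called higher, against 6.72% of all tested transcripts at that level, and 1 lower, against 5.30%. Over all tested transcripts 59.8% of the calls were higher, and this share was 49.4% when RLE replaced TMM and 22.5% when total counts did. With RLE 15 members (10.5%) were called higher, against 4.73%, and 2 (1.40%) lower, against 4.84%. With total counts, which shift the median of all transcripts by -0.25 on the log2 scale here, 7 members (4.90%) were called higher, against 2.66%, and 3 (2.10%) lower, against 9.16%.

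XM_023058069.1 (LOC111424516) stood at 8.80, 5.79, 16.6, 18.0, 10.1 and 8.95 CPM in the carinated margin and at 1.67, 7.21, 5.40, 3.84, 1.96 and 4.56 CPM in the dorsal prothorax. The ranges overlapped by number 2 of each tissue, and the log2 fold change was 1.72 ± 0.51 (SE derived from the F statistic, adjusted p = 0.027, edgeR). With total counts it was 1.47 and the call was lost (adjusted p = 0.0593, edgeR). XM_023048762.1 (LOC111416668) was at 1.41 to 5.62 CPM in the carinated margin and 0.732 to 1.34 CPM in the dorsal prothorax, 2.00 ± 0.37 higher on the log2 scale (adjusted p = 3.2e-04, edgeR) and without overlap. The gene's 2 transcripts together stood at 16.6 ± 4.23 CPM in the wing and 17.2 ± 6.78 CPM in the head, so the gene as a whole was not highest in the wing.

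XM_023053480.1, the only transcript of LOC111420478, was lower in level, at 0.410 to 1.27 CPM in the carinated margin against 0 to 0.366 CPM in the dorsal prothorax without overlap (log2 2.68 ± 0.67, adjusted p = 0.0073, edgeR). XM_023062653.1 (LOC111427486) stood at 0.888 ± 0.440 CPM against 0.110 ± 0.0811 CPM (log2 3.26 ± 0.83, adjusted p = 0.0083, edgeR). XM_023064366.1, which matched no gene, was at 0 in every dorsal prothorax library and had 1.19 to 3.97 CPM in the carinated margin. It was at least 58.5-fold higher there when scaled by total counts (adjusted p = 9.3e-04, edgeR with TMM). The other 11 had log2 fold changes of 0.41 to 1.44. They include XM_023046200.1, the most abundant member, at 14794 ± 2771 CPM against 10624 ± 2187 CPM, whose call was lost with total counts (adjusted p = 0.104, edgeR).

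The member called lower in the carinated margin was XM_023063219.1, the only transcript of LOC111427870. It stood at 17.6 to 29.1 CPM there and at 37.3 to 62.8 CPM in the dorsal prothorax, its second tissue after the wing with 118 ± 32.8 CPM. The log2 fold change was -0.77 ± 0.19 (adjusted p = 0.0062, edgeR), and the ranges did not overlap.

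In the thoracic horn 36 of the 143 members (25.2%) were called lower than in the dorsal prothorax, against 18.6% of all tested transcripts, and 9 (6.29%) were called higher, against 13.3%. The median log2 fold change was -0.61 over the members and -0.17 over all. With the replicate block 40 of 141 were called lower, against 23.1%, and 12 higher, against 16.7%. Among the 92 members at 2 CPM or more in either tissue 28 (30.4%) were called lower, against 22.6%, and 7 (7.61%) higher, against 16.2%.

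XM_023047071.1 (LOC111415391), among the most abundant members, stood at 3.23 to 13.4 CPM in the horn and 148 to 442 CPM in the dorsal prothorax. It fell by 3.60 ± 0.33 on the log2 scale (adjusted p = 5.4e-11, edgeR). XM_023052674.1 (LOC111419805) stood at 99.6 to 342 CPM in the horn and 1867 to 2738 CPM in the dorsal prothorax, a log2 fold change of -2.53 ± 0.29 (adjusted p = 1.1e-08, edgeR). Both were separate from the dorsal prothorax in every library.

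5 of the 36 had 0 counts in all horn libraries and lead the list by size. XM_023048762.1 (LOC111416668) was at least 33.6-fold lower, and it was above 0 in every dorsal prothorax library. XM_023063228.1 (LOC111427874) was at least 81.8-fold lower, XM_023059423.1 (LOC111425424) at least 69.1-fold, XM_023053463.1 at least 63.6-fold and XM_023056719.1 (LOC111423486) at least 32.2-fold. In the dorsal prothorax these 4 were themselves at 0 in some libraries, and XM_023053463.1 was above 0 in numbers 2 and 6 only. Its call was lost with the replicate block (adjusted p = 0.117, edgeR).

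Library ranges and fold bounds of members are given in CPM by column total, whereas their log2 fold changes are scaled by TMM. TMM factors were 0.531 to 0.639 in the horn and 1.16 to 1.35 in the dorsal prothorax. Overlap on the TMM scale was not examined. Of the 9 called higher in the horn, only XM_023061843.1 (LOC111426935) was free of overlap between the tissues in CPM by column total. It stood at 271 to 513 CPM in the horn and 71.6 to 191 CPM in the dorsal prothorax, a log2 fold change of 2.68 ± 0.24 (adjusted p = 2.5e-11, edgeR). XM_023061644.1 (LOC111426841) stood at 10.8 to 33.4 CPM against 7.31 to 17.9 CPM (log2 1.96 ± 0.29, adjusted p = 1.4e-06, edgeR). XM_023053480.1 (LOC111420478) was at 0 to 2.80 CPM against 0 to 0.366 CPM (log2 4.28 ± 0.71, adjusted p = 9.9e-06, edgeR). XM_023054169.1 (LOC111421053) is the transcript whose replicate numbers kept their rank. It stood at 67.1 to 388 CPM against 18.6 to 237 CPM (log2 1.96 ± 0.59, adjusted p = 0.0096, edgeR). With total counts its log2 fold change was 0.91 and the call was lost (adjusted p = 0.187, edgeR).

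XM_023055195.1 (LOC111421997) had 0 counts in the dorsal prothorax and was above 0 in horn numbers 4 and 5 only, and its call was lost with the replicate block (adjusted p = 0.12, edgeR). The horn calls depend on scaling. For XM_023063091.1 (LOC111427778) and XM_023050910.1 the log2 fold changes of 0.55 and 0.69 became -0.59 and -0.43 with total counts in place of TMM, a change that shifts the median of all transcripts by -1.11 in the horn. With total counts 78 members (54.5%) were called lower, against 58.7% of all tested transcripts, so the members' share of lower calls was then below that of all transcripts. Only 4 (2.80%) were called higher, against 4.29%, and 6.81% of all calls were higher in place of 41.7%.

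In the support structures 14 of the 143 members (9.79%) were called higher than in the dorsal prothorax, against 16.6% of all tested transcripts, and 18 (12.6%) lower, against 14.8%. With the replicate block 26 of 141 were called higher (18.4%, against 20.2%) and 19 lower (13.5%, against 19.5%). Among the 102 members at 2 CPM or more in either tissue 13 (12.7%) were called higher, against 19.7%, and 14 (13.7%) lower, against 18.0%. The median log2 fold change was 0.22 over the members and -0.06 over all. These shares did not exceed those of all transcripts in either direction, whereas without the filter on low counts 18 of 156 members (11.5%) were called lower, against 9.43%. With total counts, which shift the median of all transcripts by -0.21, 9 members (6.29%) were called higher, against 12.2%, and 19 (13.3%) lower, against 20.6%, and 37.1% of all calls were higher in place of 52.9%.

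XM_023047071.1 (LOC111415391), low in the horn, stood at 312 to 543 CPM in the support structures and 148 to 442 CPM in the dorsal prothorax, 0.91 ± 0.30 higher on the log2 scale (adjusted p = 0.018, edgeR). This call was lost with total counts (adjusted p = 0.07, edgeR). XM_023061644.1 (LOC111426841) stood at 26.5 to 75.7 CPM against 7.31 to 17.9 CPM, without overlap (log2 1.96 ± 0.29, adjusted p = 1.3e-06, edgeR). XM_023053480.1 (LOC111420478) stood at 0.654 to 4.03 CPM against 0 to 0.366 CPM (log2 4.28 ± 0.71, adjusted p = 8.8e-06, edgeR). XM_023064366.1 was at least 12.8-fold higher when scaled by total counts. XM_023046951.1 (LOC111415331) and XM_023045100.1 (LOC111413953) were highest in number 4 with 485 and 36.1 CPM. The call of XM_023045100.1 was lost with total counts (adjusted p = 0.0521, edgeR) and without the filter on low counts (adjusted p = 0.0532, edgeR). XM_023054047.1 was called higher (adjusted p = 0.043, edgeR), and this call was lost with the block (adjusted p = 0.053).

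Among the 18 called lower, XM_023057929.1 (LOC111424411) stood at 0 to 1.81 CPM in the support structures and 4.10 to 24.4 CPM in the dorsal prothorax, a log2 fold change of -4.62 ± 0.73 (adjusted p = 3.4e-06, edgeR). XM_023059423.1 (LOC111425424) had 0 counts and was at least 79.8-fold lower when scaled by total counts. XM_023053690.1 (LOC111420652), the gene with the widest wing gap, was at 0 to 0.0592 CPM against 0.180 to 1.83 CPM (log2 -5.34 ± 1.13, adjusted p = 2.8e-04, edgeR), both far below the wing. XM_023059114.1 (LOC111425220) stood at 0.0250 ± 0.0612 CPM against 1.41 ± 1.61 CPM (log2 -5.21 ± 1.80, adjusted p = 0.024, edgeR). XM_023055264.1 was called with an adjusted p of 0.0499 (edgeR) and not called with the block (adjusted p = 0.144).

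**Figure D5:**
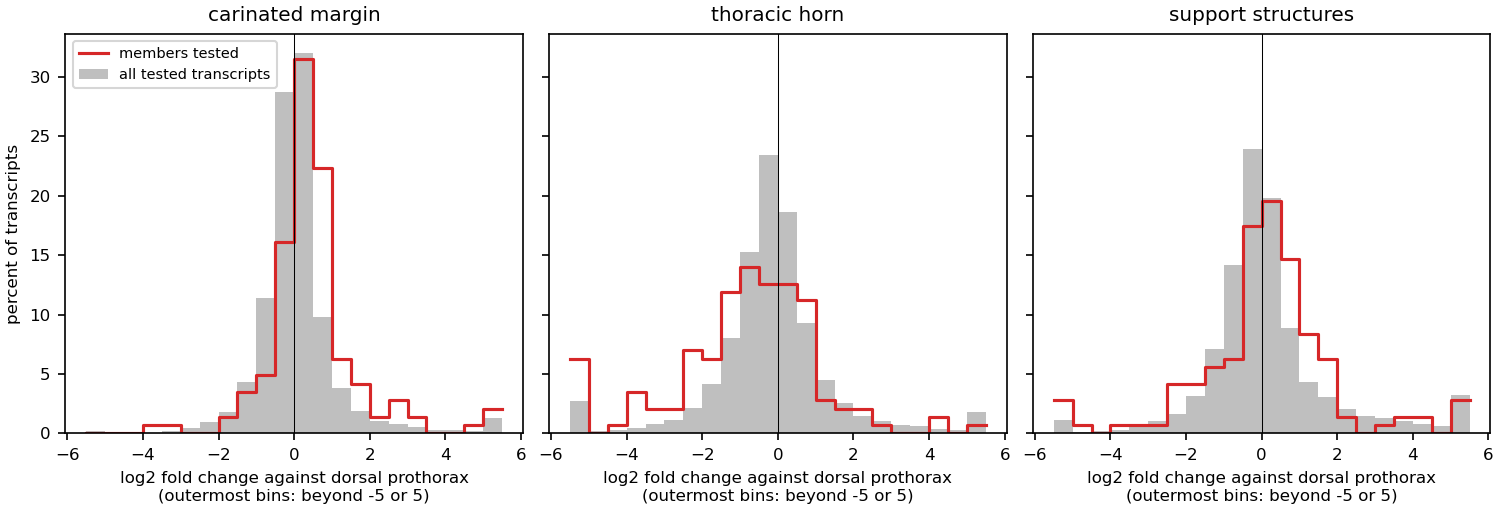
Percent of transcripts by log2 fold change against the dorsal prothorax, in bins of 0.5, for the carinated margin, the horn and the support structures; grey bars are all 14941 tested transcripts, the red line the 143 members tested, and the outermost bins collect values beyond -5 and 5. The members' median lies at 0.37, -0.61 and 0.22 from left to right, against 0.02, -0.17 and -0.06 for all transcripts.

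The reference assembly IU_Otau_3.0, used for gene order only, places 105 of the 108 member genes on chromosomes, and 2 pairs were direct neighbours. LOC111428212 (XM_023063652.1) lies next to LOC111428413 (XM_023063915.1). LOC111427778 (XM_023063091.1) lies next to LOC111427874 (XM_023063228.1 and XM_023063236.1). These are 4 of 105 genes (3.81%), and 1.57% of all 13296 coding genes have a member gene as neighbour.

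Levels within the neighbouring pairs were not alike. XM_023063915.1 stood at 73.9 to 138 CPM in the wing against a highest other library of 62.7 CPM, and XM_023063652.1 at 2.22 to 3.68 CPM with overlap. XM_023063091.1 stood at 27.2 to 33.8 CPM against a highest other library of 26.7 CPM, and XM_023063228.1 at 7.42 to 17.0 CPM with 0 counts in the horn.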

How the data were processed

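The data are 1 deposited table of expected counts, with 23725 transcripts in 60 columns. RSEM 1.3.0, Bowtie2 2.3.2, Trimmomatic 0.32 and DESeq2 are named in the submitters' processing notes. Per the labels' protocols, libraries were made with Illumina's TruSeq Stranded mRNA kit from RNA of Qiagen's RNeasy Plus Micro kit. Build and strand setting: not given in the sources used here. Of the deposited values 29.7% lay more than 0.001 from a whole number, so reads shared by transcripts or near-identical genes were divided by estimation.

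The members, the lists and the tests were chosen with earlier results of these data known. CPM was computed from column totals over all rows. Columns k and k+6 of the wing and the carinated margin correlated best with each other and were summed, giving 48 libraries; which is left or right is not known. Expected counts were rounded, filtered with filterByExpr, scaled by TMM and tested with edgeR 4.0.16 (limma 3.58.1, R 4.3.3), tissue as the only term, without the wing. The SE of a log2 fold change was not returned by the test. It was computed as the absolute log2 fold change divided by the square root of the F statistic. Same-numbered libraries correlated at 0.246 to 0.715 in all 21 pairs of the 7 tissues without the head, and at -0.256 to 0.111 with the head, so numbers pair the former only and the blocked fit leaves out the head. Alternatives were RLE size factors, total counts, no filter, DESeq2 1.42.0 and others given below. In simulated data for the carinated margin comparison (14301 transcripts) 35% of 2-fold and 62% of 4-fold changes were recovered, and 6.73% of calls were false. Simulated libraries were independent, shared the same means over all tissues before the changes, and had changes only in transcripts above a count limit. These rates therefore do not cover libraries that correlate by number or transcripts with low counts.

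Named members are the 10 highest in the wing, the 10 with the highest ratio, those next to each limit, up to 5 called members by fold in each direction and comparison, and neighbouring member genes. Other transcripts and genes were named after their values were seen. Planned lists of protein patterns and promoter motifs were not used here. Accessions matched a gene for 15104 transcripts in a RefSeq table of assembly IU_Otau_3.0.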

Additional observations from a re-analysis of the deposited data

Results flagged for a closer look

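Of 20 members examined for a wing library far from the other 5, 4 had one, and 2 of these 4 are the same measurement. Chance gives about 1 in 20 for groups not chosen by their values. These 20 were picked for a high wing level or ratio, which 1 high library raises, so that rate does not apply here and the 4 are a description. XM_023046951.1 (LOC111415331) stood at 761 CPM in number 4. That number was also its highest in the carinated margin, the posterior margin, the dorsal prothorax and the support structures. XM_023053673.1 stood at 17.9 CPM in number 4. XM_023054239.1 and XM_023053674.1, which hold identical counts and are 1 measurement, stood at 5.92 CPM in number 6.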

How the results depend on the processing

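The number of members moved with the scaling and the limits. It was 116 with TMM (111 of them among the 157), 103 with RLE size factors (all among the 157), 153 with totals over coding rows, 166 with medians over columns and 171 with columns 1 to 6 alone. It was 66 at a fold of at least 2, 461 without a minimum level, 70 with transcripts summed per gene, and 159 to 170 with each replicate number left out. Members called higher in the carinated margin numbered 16, 32 with the replicate block and 7 with total counts. Members called lower there numbered 1, and 4 with the replicate block, 5 with all 48 libraries, 2 with RLE, 3 with total counts, 3 without the filter, 4 with DESeq2 and 2 with columns 1 to 6. In the horn total counts gave 4 higher and 78 lower in place of 9 and 36, and 58.7% of all tested transcripts were then called lower, more than the 54.5% of members. In the support structures the replicate block gave 26 higher, total counts 9 and DESeq2 23 in place of 14. A fit without the block in the same libraries (added after the data were seen) gave 15 higher in the carinated margin and 13 in the support structures. The cause of the moves was not tested. Over all 94 calls of a member in a tissue, 706 of 752 alternative values kept direction and call, 44 kept direction without the call (17 of them with total counts), and 2 reversed, both in the horn with total counts, XM_023063091.1 at -0.59 (adjusted p = 0.0018, edgeR) and XM_023050910.1 at -0.43 on the log2 scale.

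Levels are relative and not corrected for length. Counts of single transcripts rest on how reads were divided within genes, and members not matched to a gene could not be summed. Low counts limit calls outside the wing, where 14 members were not tested. Wing and carinated margin hold more counts per library than the other regions of the thorax, so their low transcripts are measured more precisely.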

Other observations

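Non-coding transcripts were left out of the members, and 4 of 247 with a wing mean of at least 2 CPM (1.62%) met the same limits, against 1.69% of coding ones. XR_002706382.1, matched to no gene, stood at 667 ± 74.5 CPM in the wing, between 550.2 and 753 CPM, and at 384 ± 63.6 CPM in the support structures (SD, n = 6). XR_002706553.1 belongs to LOC111416498, the gene of the member XM_023048538.1, and stood at 27.0 ± 6.07 CPM in the wing and 16.3 ± 6.12 CPM in the carinated margin. XR_002706504.1 (LOC111416216) stood at 9.07 ± 0.993 CPM and XR_002707795.1 at 4.64 ± 2.17 CPM in the wing, with the support structures next in both. The other transcripts of the member genes included XM_023051526.1 of LOC111418839, with wing libraries of 0 to 26.0 CPM, numbers 3 and 4 being the highest, as in the member of that gene.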
